A study of Homo sapiens with 6 samples.

Results

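The human mitochondrial genome holds 37 annotated genes, and all 37 were found among the 57316 gene names of the count files by the prefix MT- of their symbols. They comprised 13 mRNA genes for subunits of the respiratory chain, 2 rRNA genes and 22 tRNA genes, and no other gene of the files lay on that molecule. They were measured in THP-1, an established human leukaemia line of monocytic origin, in 6 RNA sequencing libraries. The CXCL10 group consisted of 3 libraries from cells given PMA at 100 ng/ml for 48 h and then recombinant human CXCL10, a CXCR3 ligand, at 100 ng/ml for 24 h. The control group consisted of 3 libraries from cells given the same PMA treatment and then a control solution. PMA, a phorbol ester that gives these cells macrophage features, was thus shared by both groups, and no library without PMA was included. Both groups carried replicate numbers 1, 3 and 4, and the labels do not say whether replicates were separate cultures, so a p-value here measures only the spread between these libraries, which may be technical.

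Mitochondrial DNA is a small circle that is read from both strands into long transcripts spanning many genes. tRNAs lie between most of the other genes, and their excision releases the mRNAs and rRNAs, which then receive short poly(A) tails. The proteins encoded there are core subunits of complexes I, III and IV and of the ATP synthase, complex V, and each of these complexes also needs subunits made from nuclear genes. In macrophages the respiratory chain supplies ATP and is a source of reactive oxygen species.

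The 3′ ends of the mRNA genes are shown first, since the libraries were made from poly(A) RNA and the tail completes the stop codon of several of these mRNAs. Each line gives the last bases of a gene in GRCh38, taken from the GENCODE 29 transcript sequences, 5′ to 3′ on the coding strand, with the encoded stop bases in capitals. All 37 genes had the same coordinates there as in the files. Of the 13 genes, 6 encode an incomplete stop (T or TA) and 7 a complete one.
MT-ND1 chrM:4249-4262 (plus strand): ccccctcaaaccTA
MT-ND2 chrM:5499-5511 (plus strand): ctaataatcttaT
MT-CO1 chrM:7431-7445 (plus strand): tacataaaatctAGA
MT-CO2 chrM:8255-8269 (plus strand): gtatttaccctaTAG
MT-ATP8 chrM:8558-8572 (plus strand): cccccacaatccTAG
MT-ATP6 chrM:9193-9207 (plus strand): cacgacaacacaTAA
MT-CO3 chrM:9978-9990 (plus strand): tgatgagggtctT
MT-ND3 chrM:10392-10404 (plus strand): gactgaaccgaaT
MT-ND4L chrM:10752-10766 (plus strand): ctactccaatgcTAA
MT-ND4 chrM:12125-12137 (plus strand): gggttttcctctT
MT-ND5 chrM:14134-14148 (plus strand): ctcctaatcacaTAA
MT-ND6 chrM:14149-14163 (minus strand): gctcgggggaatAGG
MT-CYB chrM:15875-15887 (plus strand): ctcaaatgggccT
Incomplete stops occurred in MT-ND1, MT-ND2, MT-ND3, MT-ND4, MT-CO3 and MT-CYB, and MT-CO1 and MT-ND6 ended in AGA and AGG.

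4 of the mRNA genes form 2 overlapping pairs, each carried on a shared mRNA, and the shared bases are shown because reads touching both genes of a pair were left out of the counts. Capitals mark the 46 bases shared by MT-ATP8 and MT-ATP6 and the 7 bases shared by MT-ND4L and MT-ND4, with 12 bases on either side.
MT-ATP8 and MT-ATP6 chrM:8515-8584 (plus strand): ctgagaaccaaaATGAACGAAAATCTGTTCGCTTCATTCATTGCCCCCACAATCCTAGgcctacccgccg
MT-ND4L and MT-ND4 chrM:10748-10778 (plus strand): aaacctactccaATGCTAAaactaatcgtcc
MT-ATP6 and MT-CO3 also share their boundary base. MT-ATP8 kept 161 bases of its own out of 207, and MT-ND4L kept 290 of 297.

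The library totals ran from 34782380 to 41023583 counted reads. Control replicate 4 stood apart from the other 5 libraries. Ribosomal protein genes took 12.8% of its reads, against 9.85 and 9.67% in control replicates 1 and 3. In CXCL10 libraries they took 9.62, 7.67 and 8.4%, so this share was lower than in all controls, by a narrow gap for CXCL10 replicate 1. Among genes with 1 to 20 reads, 75.8% of its counts were even, against 66.8% to 68% elsewhere (both mates of a fragment were counted, so a fragment inside 1 gene adds 2 reads). Of 8 macrophage markers, CSF1R had 1461 to 1601 CPM (reads scaled to a common library total), SPI1 301 to 388, CD14 223 to 360.2, ITGAM 125 to 183 and CD163 46.9 to 70 CPM. LYZ was lower at 6.13 to 18 CPM, and MRC1, at 0.953 to 2.09 CPM, lay within the range of the markers of other cell types given below. CD68 was nearly absent from the counts, with 11 reads over the 6 libraries. Markers of T cells, B cells, epithelium, fibroblasts and red cells ranged from 0 to 2.32 CPM, with MS4A1, EPCAM and HBA1 at 0 in all libraries.

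The share of reads taken by mitochondrial genes overlapped between the groups. It was 5.09, 4.64 and 5.78% in CXCL10 libraries, against 5.35, 5.09 and 5.15% in controls (5.17% ± 0.573 and 5.2% ± 0.135, mean ± SD, n = 3 each). CXCL10 replicate 4 was the highest and CXCL10 replicate 3 the lowest library, and the 3 controls lay between them. In RNA from whole cultures, fewer cells carrying a transcript and less of it per cell cannot be told apart. mRNAs made up most of this share, with 4.46% ± 0.433 of all reads in CXCL10 libraries and 4.39% ± 0.111 in controls. The rRNAs took 0.709% ± 0.163 in CXCL10 libraries and 0.801% ± 0.0302 in controls. The 22 tRNA genes together held 1834 to 2477 reads per library. Of the mitochondrial reads, the 9 genes on the minus strand, mostly MT-ND6, took 2.83, 2.77 and 3.06% in CXCL10 libraries, against 3.21, 2.93 and 3.57% in controls, and the 28 genes on the plus strand took the rest. Control replicate 4 had the largest share on these 9 genes. Counting ignored strand, so reads of either strand over these genes were included.

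No mitochondrial gene passed the test in either direction. By the quasi-likelihood test of edgeR, with p-values adjusted after Benjamini and Hochberg over 16531 genes, 0 of the 15 mRNAs and rRNAs were called, and 0% of the genes tested. An unadjusted p under 0.05 was reached by 1181 genes in edgeR, 1211 in DESeq2 and 1182 in limma-voom, and the last pair of tools also called 0. Of the 15, 2 had an unadjusted p under 0.05 by edgeR, MT-ATP8 and MT-ND4L, both higher with CXCL10, against 7.14% of all tested genes in either direction and 2.50% in the higher one. The CPM of the 2 groups did not overlap for 3 of the 15, against 12.2% of all tested genes. The median log2 fold change of the 13 mRNAs, CXCL10 over control, was -0.02, against 0.02 over all tested genes. Scaled by library size alone these medians were 0.06 and 0.10. A 95% interval within -1 and 1 log2 units was found for 13 of the 15, with MT-ATP8 and MT-ND4L as the 2 exceptions. With no filter on low counts 4 mitochondrial genes passed the test (MT-ATP8 and MT-ND4L higher, MT-TC and MT-TY lower with CXCL10), and 0 did so when control replicate 4 was left out as well. CPM here are scaled by TMM factors unless unscaled totals are named, and differences in log2 units are fitted log2 fold changes of CXCL10 over control.

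**Figure D1:**
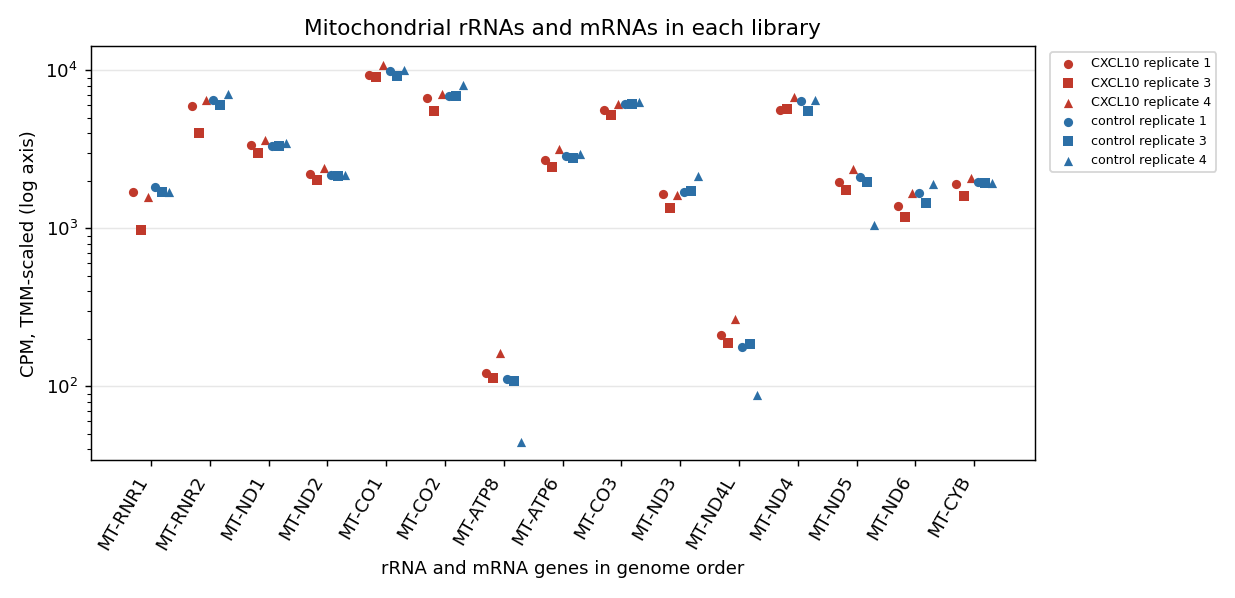
CPM of the 2 rRNAs and 13 mRNAs in each of the 6 libraries on a log axis, in genome order, with CXCL10 libraries in red left of controls in blue and 1 point per library. Points of the 2 groups intermingle for most genes, and control replicate 4 stands below the other libraries for MT-ATP8, MT-ND4L and MT-ND5.

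Per kilobase of gene length, the mitochondrial mRNAs were among the genes with the most reads in these poly(A) libraries. Of all mitochondrial reads MT-CO1 held 18.8%, MT-CO2 13.2%, MT-ND4 11.8%, MT-RNR2 11.5% and MT-CO3 11.4%. MT-CO2 ranked 2nd of all genes by reads per kb, MT-CO3 ranked 4th and MT-CO1 5th. Over the 6 libraries MT-CO2 measured 10049.8 ± 1164 CPM per kb (mean ± SD), MT-CO3 7534 ± 513 and MT-CO1 6319.8 ± 436, and this order held in all 6. Below them came MT-ND3 at 4899 ± 741, MT-ND4 at 4421 ± 391, MT-ATP6 at 4149 ± 346, MT-RNR2 at 3855 ± 675 and MT-ND1 at 3505 ± 222 CPM per kb. Their order was not the same in every library, since each neighbour in it was above the next in 4 or 5 of 6. MT-ND6 (2936 ± 494), MT-ND2 (2099.7 ± 116) and MT-CYB (1669 ± 136 CPM per kb) followed in that order in all 6 libraries. Counting ignored strand, which bears on the place of MT-ND6 in this order. MT-CYB and MT-RNR1 (1655 ± 319.7 CPM per kb) could not be ordered, as MT-CYB was the higher of the pair in 2 of 6. The libraries were made from poly(A) RNA, so the rRNA values need not reflect total rRNA or its place among the mRNAs. MT-ND5 at 1031 ± 245, MT-ND4L at 627 ± 195 and MT-ATP8 at 533 ± 184 CPM per kb were lowest in all 6 libraries. The last pair are the short partners of the overlapping genes, and their reads were also limited by the exclusion of reads that touch a neighbour.

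The 2 rRNAs form the small and large subunits of the mitochondrial ribosome. MT-RNR1, the 12S rRNA (ENSG00000211459.2, chromosome M, 648 to 1601, plus strand, hg38, as for all positions below), had 1702, 979 and 1569.5 CPM in CXCL10 libraries, against 1828, 1692 and 1700.4 CPM in controls. MT-RNR2, the 16S rRNA (ENSG00000210082.2, 1671 to 3229), had 5984, 4014 and 6534 CPM in CXCL10 libraries, against 6472, 6017 and 7040.4 CPM in controls. CXCL10 replicate 3 was the lowest library for both. CXCL10 replicate 4 also lay below all controls for MT-RNR1, as did CXCL10 replicate 1 for MT-RNR2, and the remaining CXCL10 library lay within the range of the controls in each case. The fitted difference for MT-RNR1 was -0.30 ± 0.18 log2 units (SE, edgeR adjusted p = 0.739), and for MT-RNR2 it was -0.24 ± 0.17 log2 units (SE, edgeR adjusted p = 0.767). Without CXCL10 replicate 3 these values were -0.08 and -0.05. The value for MT-RNR1 was -0.45 without CXCL10 replicate 1, and that for MT-RNR2 was -0.38 without CXCL10 replicate 4. As a part of all mitochondrial reads in these poly(A) libraries, the rRNAs took 15.2, 11.3 and 14.4% in CXCL10 libraries, against 15.4, 15.1 and 15.8% in controls. CXCL10 replicate 3 was again the lowest, and the groups overlapped.

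Complex I, the NADH dehydrogenase that starts the chain, has 7 mitochondrial mRNAs, which took 38.6% ± 0.325 of mitochondrial mRNA reads in CXCL10 libraries and 37.8% ± 0.766 in controls (n = 3 each). MT-ND1 (ENSG00000198888.2, 3307 to 4262) had 3388, 2989 and 3616 CPM in CXCL10 libraries, against 3328, 3298 and 3487 CPM in controls. MT-ND2 (ENSG00000198763.3, 4470 to 5511) had 2194, 2030.5 and 2403 CPM in CXCL10 libraries, against 2179.7, 2151 and 2169 CPM in controls. MT-ND4 (ENSG00000198886.2, 10760 to 12137) had 5640.3, 5691 and 6798 CPM in CXCL10 libraries, against 6399, 5522 and 6504 CPM in controls. These are membrane-arm subunits, and their CPM overlapped between the groups. MT-ND1 differed by -0.02 ± 0.13 log2 units (SE, edgeR adjusted p = 0.984). The difference was 0.03 ± 0.12 log2 units (SE, edgeR adjusted p = 0.973) for MT-ND2 and -0.02 ± 0.13 log2 units (SE, edgeR adjusted p = 0.979) for MT-ND4. Scaled by library size alone, both MT-ND1 and MT-ND4 were on the other side of 0, at 0.06 log2 units.

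MT-ND3, which encodes a small membrane subunit near the junction with the peripheral arm (ENSG00000198840.2, 10059 to 10404), had 1639, 1343 and 1626 CPM in CXCL10 libraries, against 1709, 1714 and 2138 CPM in controls. All 3 CXCL10 libraries lay below all 3 controls, where 6.48% of tested genes show no overlap in this direction. It differed by -0.27 ± 0.14 log2 units (SE, edgeR adjusted p = 0.702), and -0.15 without control replicate 4, its highest library, or -0.18 without CXCL10 replicate 3.

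MT-ND4L, another membrane subunit (ENSG00000212907.2, 10470 to 10766), had 213, 187 and 266 CPM in CXCL10 libraries, against 178, 185 and 88.5 CPM in controls. CXCL10 libraries lay above controls without overlap, as for 5.76% of tested genes in this direction, by a narrow gap between CXCL10 replicate 3 and control replicate 3. Control replicate 4 was far below the other 5 libraries. The difference was 0.56 ± 0.23 log2 units (SE, edgeR adjusted p = 0.683), and 0.30 without control replicate 4.

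MT-ND5, the largest mitochondrially encoded subunit (ENSG00000198786.2, 12337 to 14148), had 1961, 1760.2 and 2359 CPM in CXCL10 libraries, against 2099, 1973 and 1055 CPM in controls. Control replicate 4 was the lowest library here too, and the other controls lay within the range of the CXCL10 libraries. The difference was 0.25 ± 0.21 log2 units (SE, edgeR adjusted p = 0.809), and -0.003 without control replicate 4.

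MT-ND6 is the only mRNA gene on the opposite strand (ENSG00000198695.2, 14149 to 14673, minus strand), and in human cells its mRNA is known to carry little or no poly(A) tail. It had 1379, 1179 and 1666 CPM in CXCL10 libraries, against 1672, 1441 and 1909.8 CPM in controls. Control replicate 4 was the highest library, and CXCL10 replicate 4 lay above control replicate 3, so the groups overlapped. The difference was -0.25 ± 0.15 log2 units (SE, edgeR adjusted p = 0.747). Leaving out 1 library moved it to -0.13 (CXCL10 replicate 3), -0.39 (CXCL10 replicate 4) or -0.14 (control replicate 4). Counting ignored strand and both strands of the circle are transcribed, so reads of MT-ND6 cannot be told apart from antisense reads through the same bases.

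Complex III, the cytochrome bc1 complex that passes electrons to cytochrome c, has MT-CYB (ENSG00000198727.2, 14747 to 15887) as its sole mitochondrial mRNA. It had 1915, 1611 and 2072 CPM in CXCL10 libraries, against 1965, 1926 and 1939 CPM in controls. The controls lay close together and inside the range of the CXCL10 libraries, and the difference was -0.06 ± 0.13 log2 units (SE, edgeR adjusted p = 0.94). Of mitochondrial mRNA reads it took 4.46, 4.12 and 4.3% in CXCL10 libraries, against 4.32, 4.44 and 4.16% in controls.

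Complex IV, cytochrome c oxidase, reduces oxygen at the end of the chain. Its 3 catalytic-core mRNAs had the most reads per kb of the mitochondrial genes. They took 50.4% ± 0.38 of mitochondrial mRNA reads in CXCL10 libraries and 51.3% ± 0.900 in controls. MT-CO1, which carries the oxygen-reducing centre (ENSG00000198804.2, 5904 to 7445), had 9352, 9019.9 and 10852 CPM in CXCL10 libraries, against 9911, 9268 and 10067 CPM in controls. MT-CO2, which accepts electrons from cytochrome c (ENSG00000198712.1, 7586 to 8269), had 6732, 5551 and 7124 CPM in CXCL10 libraries, against 6925, 6882 and 8029.6 CPM in controls. Both overlapped between the groups, and the difference was -0.001 ± 0.13 log2 units (SE, edgeR adjusted p = 0.999) for MT-CO1 and -0.17 ± 0.14 log2 units (SE, edgeR adjusted p = 0.802) for MT-CO2. For MT-CO2 it was -0.06 without CXCL10 replicate 3 and -0.09 without control replicate 4, its highest library. Scaled by library size alone, MT-CO1 was at 0.08. MT-CO3 (ENSG00000198938.2, 9207 to 9990), the remaining core subunit, had 5647, 5209 and 6105 CPM in CXCL10 libraries, against 6089, 6107 and 6283 CPM in controls. CXCL10 replicate 4 lay between controls 1 and 3, and the other CXCL10 libraries lay below all controls. It differed by -0.12 ± 0.12 log2 units (SE, edgeR adjusted p = 0.842), and -0.06 without CXCL10 replicate 3.

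Complex V, the ATP synthase, has 2 mitochondrial mRNAs, for subunits of its membrane part. Of mitochondrial mRNA reads they took 6.63, 6.57 and 6.91% in CXCL10 libraries, against 6.56, 6.69 and 6.39% in controls, with overlap. MT-ATP6, a subunit of the proton channel (ENSG00000198899.2, 8527 to 9207), had 2725, 2459.8 and 3170.2 CPM in CXCL10 libraries, against 2868, 2794 and 2938 CPM in controls, with overlap and a difference of -0.04 ± 0.13 log2 units (SE, edgeR adjusted p = 0.957). MT-ATP8, a small accessory subunit (ENSG00000228253.1, 8366 to 8572), had 122, 113 and 163 CPM in CXCL10 libraries, against 111, 108 and 44.7 CPM in controls. CXCL10 libraries lay above controls without overlap, as for 5.76% of tested genes in this direction. The gap between CXCL10 replicate 3 and control replicate 1 was narrow, and control replicate 4 lay far below. MT-ATP8 differed by 0.59 ± 0.26 log2 units (SE, edgeR adjusted p = 0.684), and 0.28 without control replicate 4 (edgeR adjusted p = 0.997).

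**Figure D2:**
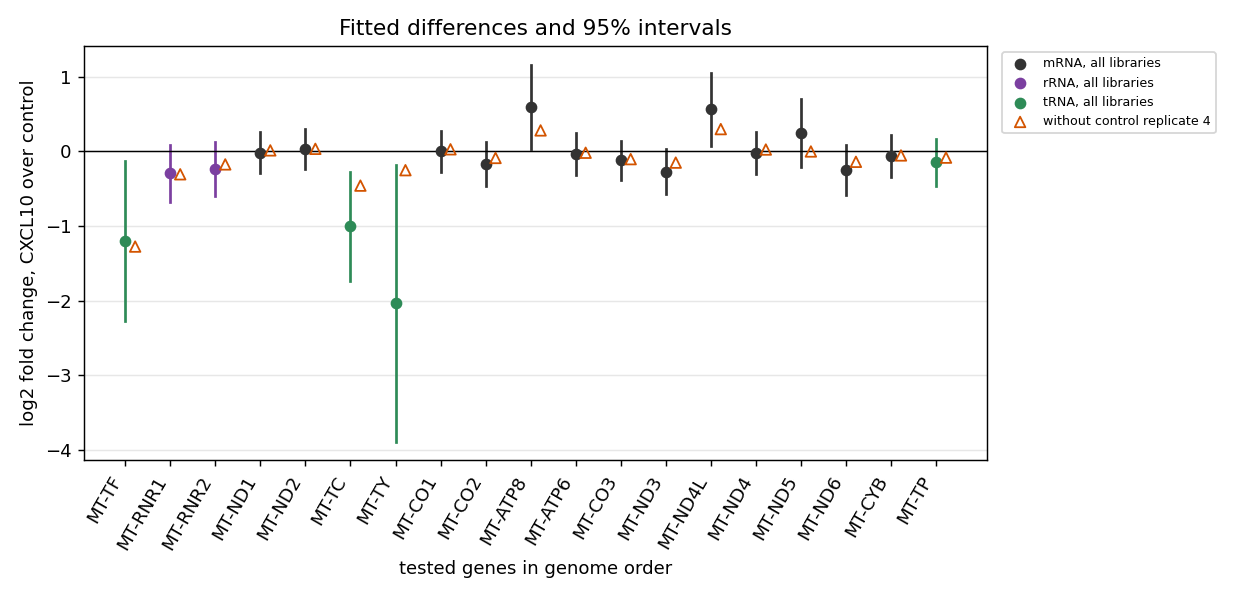
Fitted log2 fold change, CXCL10 over control, of the 19 tested mitochondrial genes in genome order, with 95% intervals and open triangles for the fit without control replicate 4. Among mRNAs and rRNAs, MT-ATP8 and MT-ND4L lie furthest from 0 and move closer to it without that library, as do the tRNAs MT-TC and MT-TY. The other mRNAs and rRNAs lie between -0.30 and 0.25.

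Most of the extremes were set by CXCL10 replicate 3, CXCL10 replicate 4 and control replicate 4. Control replicate 4 was the highest library for 4 mRNAs (MT-CO2, MT-CO3, MT-ND3 and MT-ND6) and the lowest for 3 (MT-ATP8, MT-ND4L and MT-ND5). CXCL10 replicate 3 was the lowest library for 9 of the 13 mRNAs and for both rRNAs, and CXCL10 replicate 4 was the highest for 9 mRNAs. The part of the library features given above in these patterns was not tested.

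Ratios of 2 genes within a library do not depend on library scaling, and 5 of them were compared between the groups by exact two-sided permutation tests, whose smallest possible p is 0.1. The ratio per kb of MT-ATP8 to its mRNA partner MT-ATP6 was 0.147, 0.151 and 0.169 in CXCL10 libraries, against 0.127, 0.128 and 0.050 in controls. The groups did not overlap (exact p = 0.1, adjusted over the 5 ratios 0.25), and the difference of the mean log2 ratios, CXCL10 minus control, was 0.74, or 0.29 without control replicate 4. The ratio of MT-ND4L to its partner MT-ND4 was 0.175, 0.152 and 0.182 in CXCL10 libraries, against 0.129, 0.155 and 0.0631 in controls. Control replicate 3 lay above CXCL10 replicate 3, so the groups overlapped (difference 0.65 on the log2 scale, exact p = 0.2). Without control replicate 4 the difference was 0.26.

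The ratio of MT-ND6 to MT-ND5, neighbours on opposite strands, was 2.43, 2.31 and 2.44 in CXCL10 libraries, against 2.75, 2.52 and 6.25 in controls. All CXCL10 libraries lay below all controls (exact p = 0.1, adjusted 0.25). The difference was -0.55 on the log2 scale, and -0.14 without control replicate 4, whose ratio was far above the rest. The 16S to 12S rRNA ratio was 2.15, 2.51 and 2.55 in CXCL10 libraries, against 2.17, 2.18 and 2.53 in controls (exact p = 0.9). That of MT-CO1 to MT-ND1 was 1.71, 1.87 and 1.86 in CXCL10 libraries, against 1.85, 1.74 and 1.79 in controls (exact p = 0.8). Both overlapped between the groups.

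**Figure D3:**
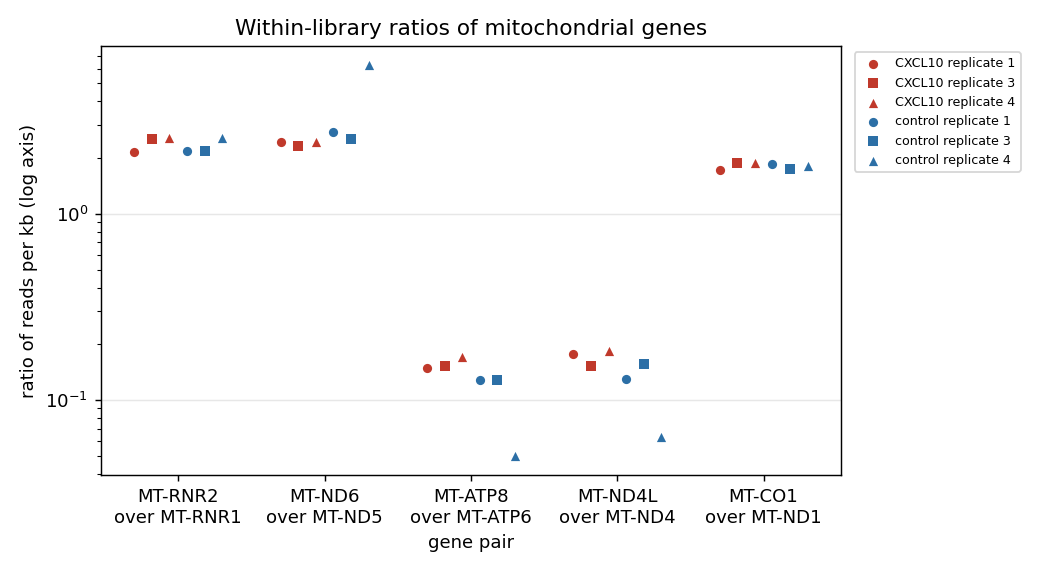
Ratio of reads per kb for 5 pairs of mitochondrial genes in each library, on a log axis, with CXCL10 libraries in red left of controls in blue. Control replicate 4 lies apart in the ratios of MT-ND6 to MT-ND5, MT-ATP8 to MT-ATP6 and MT-ND4L to MT-ND4, and near the other libraries in the remaining pair of ratios.

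Mitochondrial tRNAs deliver amino acids to the mitochondrial ribosome. Their genes are 59 to 75 bases long, and a read reaching from one into an annotated neighbour was not counted, so these counts do not measure mature tRNA levels. Of the 22 tRNA genes, 5 had no read in any library (MT-TI, MT-TW, MT-TD, MT-TG and MT-TR), and 16 never exceeded 10 reads in a library. A count of 0 allows up to 3 fragments, or 6 reads, which is 0.146 to 0.173 CPM of unscaled totals by counting error alone. 4 tRNA genes passed the filter on low counts, and their sequences are shown for the 3 that border the longest unannotated stretches among them, with the anticodon in capitals (GRCh38, from GENCODE 29).
MT-TP chrM:15956-16023 (minus strand): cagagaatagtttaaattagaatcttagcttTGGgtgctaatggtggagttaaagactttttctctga
MT-TC chrM:5761-5826 (minus strand): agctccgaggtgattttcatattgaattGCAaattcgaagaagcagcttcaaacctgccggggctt
MT-TF chrM:577-647 (plus strand): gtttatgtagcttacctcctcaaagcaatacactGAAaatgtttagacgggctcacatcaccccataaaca
MT-TP, the proline tRNA, is the last gene in coordinate order and has no annotated gene after it. MT-TF, the phenylalanine tRNA, is the first and has 576 unannotated bases before it. MT-TC, the cysteine tRNA, has 31 such bases on its lower-coordinate side. MT-TN, the asparagine tRNA on the other side of the same 31 bases, had 0 to 5 reads.

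MT-TP had 1822, 1691 and 1926 reads in CXCL10 libraries, against 1950, 1907 and 1909 reads in controls, far above the other tRNA genes in every library. It differed by -0.15 ± 0.15 log2 units (SE, edgeR adjusted p = 0.842), with overlap between the groups. Leaving out 1 library moved it to -0.02 (CXCL10 replicate 3), -0.25 (CXCL10 replicate 4) or -0.09 (control replicate 4). MT-TC had 185, 111 and 115 reads in CXCL10 libraries, against 216, 163 and 393 reads in controls. Control replicate 4 was the highest library, and CXCL10 replicate 1 lay above control replicate 3. MT-TC differed by -1.0 ± 0.34 log2 units (SE, edgeR adjusted p = 0.683), and -0.46 without control replicate 4.

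MT-TF had 13, 7 and 10 reads in CXCL10 libraries, against 27, 22 and 18 reads in controls. Every CXCL10 library lay below every control, as for 6.48% of tested genes, at a level near the filter. The difference was -1.20 ± 0.50 log2 units (SE, edgeR adjusted p = 0.683). MT-TY, the tyrosine tRNA (5826 to 5891, minus strand), had 11, 7 and 7 reads in CXCL10 libraries, against 18, 2 and 74 reads in controls. Its highest value was in control replicate 4, and the difference of -2.03 ± 0.86 log2 units (SE, edgeR adjusted p = 0.683) was -0.25 without that library. Of the 4 tested tRNA genes, MT-TC, MT-TF and MT-TY had an unadjusted p under 0.05, all lower with CXCL10, against 4.65% of tested genes in that direction. MT-TF and MT-TY passed the filter on low counts only with the reads of control libraries, so the filter bears on this count. The count is given as a description only. Among the untested genes, control replicate 4 also had the most reads for MT-TE, with 33 reads against 1 to 13 elsewhere, and for MT-TS2, with 24 reads against 0 to 2.

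**Figure D4:**
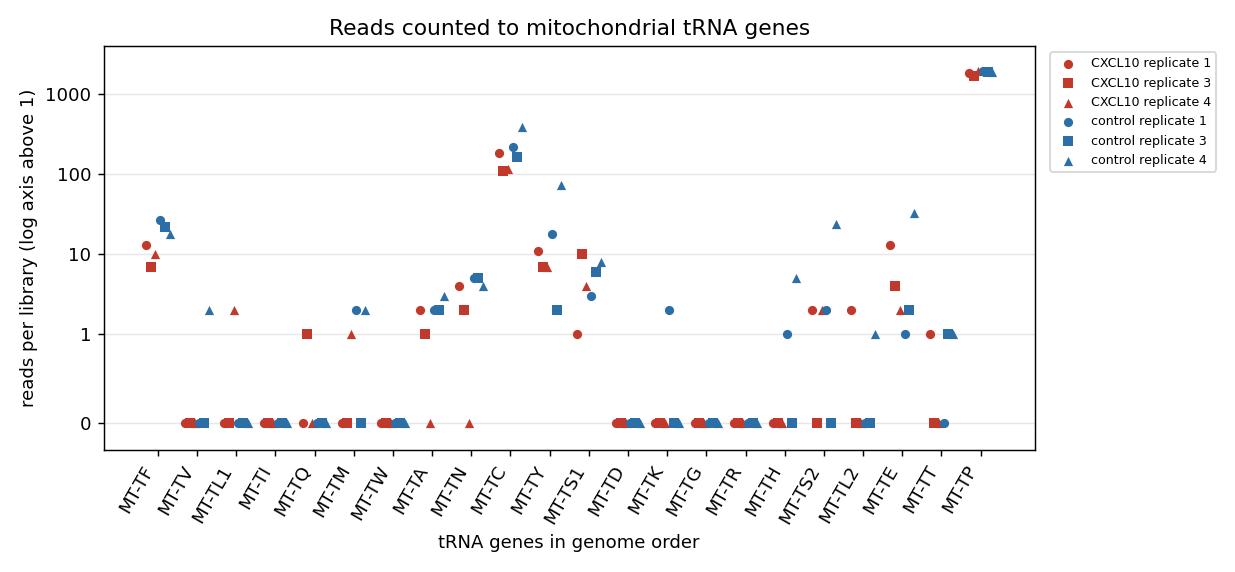
Reads counted to each of the 22 mitochondrial tRNA genes in each library, in genome order, on an axis that is logarithmic above 1 read, with CXCL10 libraries in red left of controls in blue. MT-TP holds 1691 to 1950 reads in every library, MT-TC 111 to 393, and most other genes lie between 0 and 10.

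Nuclear genes that maintain, transcribe and process mitochondrial DNA and RNA gave 0 calls. Of 9 tested transcription genes, 4 were above and 5 below 0 (median log2 fold change -0.03, and -0.11 without control replicate 4). The member with the lowest p-value was TEFM, an elongation factor of the mitochondrial RNA polymerase, with 12.2, 11.8 and 11.3 CPM in CXCL10 libraries, against 9.03, 11.1 and 8.25 CPM in controls. Its groups did not overlap, as for 5.76% of tested genes in this direction. It differed by 0.31 ± 0.17 log2 units (SE, edgeR adjusted p = 0.712). TFB2M, an initiation factor of the same polymerase, differed by -0.21 ± 0.14 log2 units (SE, edgeR adjusted p = 0.764).

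Of 19 tested genes of RNA processing and turnover, 6 were above and 13 below 0 (median -0.06, and -0.04 without control replicate 4). An unadjusted p under 0.05 by edgeR was found for 3 of the 19, against 7.14% of all tested genes. The 2 with the lowest p-value are given next. SLIRP, which with LRPPRC stabilizes mitochondrial mRNAs, had 57, 37.6 and 42.8 CPM in CXCL10 libraries, against 64.3, 62.7 and 108 CPM in controls. HSD17B10, a subunit of the mitochondrial RNase P that cuts tRNAs at their 5′ ends, had 78.8, 59.5 and 61.6 CPM in CXCL10 libraries, against 83.5, 86.1 and 103 CPM in controls. For both, all CXCL10 libraries lay below all controls, as for 6.48% of all tested genes, and control replicate 4 was the highest library. SLIRP differed by -0.77 ± 0.21 log2 units (SE, edgeR adjusted p = 0.683), and by -0.47 without that library. HSD17B10 differed by -0.45 ± 0.15 log2 units (SE, edgeR adjusted p = 0.683), and by -0.34 without it.

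The 12 genes of mitochondrial DNA maintenance divided evenly, with 6 above and 6 below 0 (median 0.06). SSBP1, the mitochondrial single-strand DNA binding protein, differed by -0.36 ± 0.14 log2 units (SE), and PRIMPOL, a primase-polymerase, by 0.36 ± 0.21. Without control replicate 4 these values were -0.21 and 0.13. The FASTK family of mitochondrial RNA-binding proteins had 2 of 6 above 0 (median -0.07), with FASTKD2 at -0.17 ± 0.14 and FASTK at -0.12 ± 0.14 log2 units, and -0.09 and -0.16 without that library. The mitochondrial tRNA synthetases had 9 of 19 above 0 (median -0.02), with FARS2 for phenylalanine at -0.25 ± 0.18 and VARS2 for valine at 0.36 ± 0.27 log2 units. Without control replicate 4, the lowest library for VARS2, they were at -0.15 and 0.07. Regulators of mitochondrial biogenesis had 4 of 9 above 0 (median -0.0052, and 0.13 without control replicate 4). The transcription factor genes GABPA and NRF1 were at 0.30 ± 0.18 and 0.14 ± 0.15 log2 units. The edgeR adjusted p-values of these 8 genes lay between 0.683 and 0.867.

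Nuclear subunits of the same complexes lay mostly below 0, again with 0 calls. Below 0 were 33 of 37 for complex I (median log2 fold change -0.40), 8 of 9 for complex III (-0.30), 11 of 11 for complex IV (-0.45) and 17 of 17 for complex V (-0.43). An unadjusted p under 0.05 by edgeR, in either direction and with all 6 libraries, was found for 19, 4, 10 and 12 subunits. The share over all tested genes was 7.14%, and 4.65% for the lower direction alone. Without control replicate 4, the library with the highest ribosomal protein share, the medians were -0.19, -0.19, -0.26 and -0.24. The remaining controls still had a higher ribosomal protein share than every CXCL10 library. The part of that library feature in these values was not tested. In complex I the lowest p-values belonged to NDUFAB1, the acyl carrier protein, at -0.56 ± 0.17 log2 units (SE), and to NDUFS6 at -0.76 ± 0.24. In complex III they belonged to UQCRB at -0.45 ± 0.17 and UQCRQ at -0.57 ± 0.22, and in complex IV to COX6B1 at -0.57 ± 0.18 and COX6A1 at -0.52 ± 0.18 log2 units. In complex V they belonged to ATP5PO, a subunit of the stalk, at -0.85 ± 0.25 and to ATP5ME at -0.94 ± 0.29 log2 units. Each of these 8 genes had an edgeR adjusted p of 0.683, and without control replicate 4 their values lay between -0.43 and -0.26 log2 units.

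The balance of mitochondrial to nuclear subunit reads was taken within each library, as summed mitochondrial mRNA reads over summed reads of the nuclear subunits of the same complex. For complex I it was 5.27, 6.09 and 6.92 in CXCL10 libraries, against 5.58, 5.25 and 4.1 in controls. For complex IV it was 6.75, 9.07 and 9.46 in CXCL10 libraries, against 7.2, 7.09 and 5.59 in controls. Control replicate 4 had the lowest and CXCL10 replicate 4 the highest ratio in all 4 complexes, and CXCL10 replicate 1 lay below control replicate 1 in each. For complex III the ratio was 0.977, 1.1 and 1.21 in CXCL10 libraries, against 0.981, 0.978 and 0.775 in controls, and for complex V it was 0.891, 0.979 and 1.17 in CXCL10 libraries, against 0.921, 0.884 and 0.717 in controls. The groups overlapped in each complex. By unscaled library totals, control replicate 4 also had the highest summed CPM of nuclear subunits in all 4 complexes. For complex I it was 3934 CPM in a range from 2619 CPM upward. No p-value was computed for these sums.

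**Figure D5:**
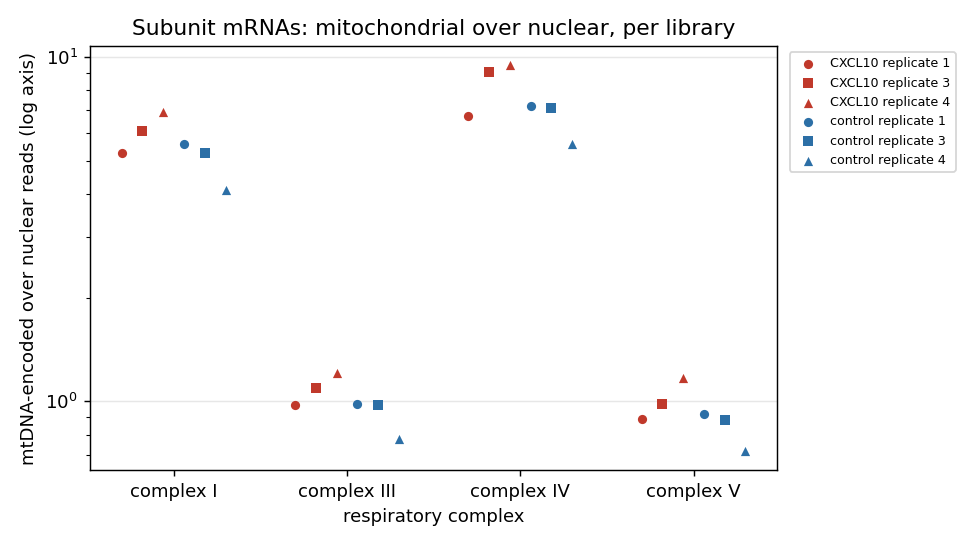
Reads of mitochondrially encoded over reads of nuclear-encoded subunit genes for complexes I, III, IV and V in each library, on a log axis, with CXCL10 libraries in red left of controls in blue. In all 4 complexes control replicate 4 is lowest and CXCL10 replicate 4 highest, and the groups overlap.

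Nuclear copies of mitochondrial genes bear on the counts, since reads matching both places equally well were left out. The files list 407 names of such copies, of which 88 had a read in some library. Together they held 0.965% to 1.42% as many reads as the mitochondrial genes. MTND2P28, a copy of MT-ND2 on chromosome 1 (629640 to 630683), had 13154, 15874 and 14405 reads in CXCL10 libraries, against 14735, 13649 and 9765 reads in controls. MTATP6P1, a copy of MT-ATP6 on chromosome 1 (633696 to 634376), had 8381, 9916 and 9455 reads in CXCL10 libraries, against 9382, 10106 and 7108 reads in controls. MTCO1P12, a copy of MT-CO1 on the same chromosome (631074 to 632616), had 300 to 508 reads. Control replicate 4 was the lowest library for the first 2 of them. Chromosome 1 also holds copies of MT-ND1, MT-CO2 and MT-CO3 (MTND1P23, MTCO2P12 and MTCO3P12), with 196, 277 and 255 reads in all. Chromosome 5 holds copies of MT-ND4, MT-ND5, MT-ND6 and MT-CYB (MTND4P12, MTND5P11, MTND6P4 and MTCYBP18), with 688, 557, 319 and 135 reads in all. MTRNR2L12 on chromosome 3, taken here as a copy of MT-RNR2, had 283. The absolute levels of mitochondrial genes with such copies are therefore uncertain. Among them are MT-ND2, MT-ATP6, MT-CO1, MT-ND1, MT-CO2, MT-CO3, MT-ND4, MT-ND5, MT-ND6, MT-CYB and MT-RNR2.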

How the data were processed

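Poly(A) RNA of 6 libraries was prepared with a stranded Illumina mRNA ligation kit, per the labels. The deposited files give unnormalized read counts by gene name, 1 library each, and the authors obtained them with featureCounts 2.0.6 on GENCODE 30 exons, per the file headers. Trim Galore, STAR, Subread and build hg38 are named in the submitters' processing notes, with versions not given in the sources used here. Per the command line in the file headers, no strand was set, both mates were counted, and reads over 2 genes or mapped to several places were left out.

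Groups came from the labels. The test across genes used edgeR 4.0.16 under R 4.3.3 (filterByExpr, TMM factors, quasi-likelihood test with group as the only term, Benjamini-Hochberg adjustment over 16531 genes, threshold 0.05). On simulated data it called 18 of 50 genes changed 1.5-fold and 41 of 50 changed 2-fold, so changes of 1.5-fold were often missed there. 19 of 37 mitochondrial genes passed the filter. CPM were derived here from deposited counts and TMM-scaled totals. Shares, summed CPM of nuclear subunits and the CPM allowed by a count of 0 used unscaled totals. Standard errors were taken from each fitted difference and its F statistic. Exact permutation tests served the 5 gene ratios. Alternatives were other scalings, no filter, DESeq2 1.42.0, limma-voom (limma 3.58.1), a replicate block, halved counts, subtraction of a gene length trend, and each library left out. A fit with no filter and without control replicate 4 was added after the data were seen.

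The members, gene lists and rules were chosen with earlier results of these data known. All mRNAs, rRNAs and tRNAs that passed the filter are named, and the 2 genes with the lowest p-value from each related list. Of 150 related symbols, 149 matched a name in the files and PRORP was not used here.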

Additional observations from a re-analysis of the deposited data

How the results depend on the processing

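Without the low-count filter edgeR called 137 genes, 4 of them mitochondrial: MT-TC (adjusted p = 0.0109 by edgeR), MT-ATP8 (0.0283), MT-ND4L (0.0346) and MT-TY (0.044). With no filter and without control replicate 4, chosen after the data were seen, it called 1 gene and 0 mitochondrial ones. The other settings run called 0 genes. The median of the 13 mRNAs was 0.16 with the gene length trend removed. The cause was not tested.

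Scaled by library size alone, log2 fold changes of CXCL10 over control turned positive for MT-ND1 (0.061), MT-CO1 (0.078), MT-ATP6 (0.037), MT-ND4 (0.057) and MT-CYB (0.019). With the length trend removed they did so for MT-ND1 (0.17), MT-CO1 (0.16), MT-CO2 (0.034), MT-ATP6 (0.16), MT-CO3 (0.069), MT-ND4 (0.15), MT-CYB (0.11) and MT-TP (0.13). With no filter MT-CO1 was 0.00017. With no filter and without control replicate 4, MT-ND1, MT-CO1 and MT-ND4 were 0.015, 0.030 and 0.027. With 1 library left out, values crossed 0 for MT-ND1 (-0.081 to 0.063), MT-ND2 (-0.037 to 0.093), MT-CO1 (-0.086 to 0.059), MT-ATP6 (-0.15 to 0.048), MT-ND4 (-0.12 to 0.025), MT-ND5 (-0.0030 to 0.42), MT-CYB (-0.14 to 0.045) and the MT-CO1 to MT-ND1 ratio (-0.0063 to 0.058, difference in log2 ratio).

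Same-numbered libraries did not deviate together (correlations of deviations from -0.05 to 0.03 across genes). Deviations were taken within groups of only 3 libraries, so these values cannot show whether the numbers mark pairs. With the replicate block edgeR called 0 genes, the mRNA median was -0.025, and the exact p of the MT-ATP8 to MT-ATP6 difference was 0.25, the smallest that 3 pairs allow. MT-TF and MT-TY, with 2 to 74 reads, fell below the filter with halved counts.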
